A study of Mus musculus with 6 samples.

Results

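The genes described here are those of mouse chromosome 14 that the Clariom S arrays measured. They were selected as every row of the deposited value table whose identifier starts with TC14 and that carries a gene symbol, with Gfra2, Tnfsf11, Bmp4 and Bmpr1a left out. The rule gave 683 rows with 679 symbols, of 19571 rows with a symbol on all chromosomes. The chromosome was itself chosen by the contrast between Tmem161a-KO and WT cells in these same arrays, so the shares and fold changes given for that contrast describe the genes and test nothing about the chromosome.

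RNA was compared between Tmem161a-KO MC3T3-e1 cells and intact WT MC3T3-e1 cells, with 3 arrays each, to screen for genes related to Tmem161a. MC3T3-e1 is a line of osteoblastic cells that came from the calvaria of a mouse. The Tmem161a-KO cells were 1 line obtained by limited dilution after CRISPR/Cas9 editing. The labels name no treatment of either group. An effect of Tmem161a and a property of that line cannot be told apart with 1 line. The sources used here do not say whether the arrays of a group came from separate cultures, so intervals and p-values measure the spread between these arrays, which may be technical.

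Chromosome 14 of the mouse carries no single pathway. It holds genes that every dividing cell uses, for RNA processing, chromatin, mitochondria and the secretory pathway, beside genes of bone and matrix such as Mmp14 and Bmp1, and clusters that only specialised cells switch on, such as the granzymes and mast cell proteases. When a cell line gains or loses copies of a whole chromosome, the transcripts of many genes on it move with the copy number, while some genes are held back or pushed further by their own regulation. DNA was not measured on these arrays, so the copy number of chromosome 14 was not tested.

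Promoter sequences are shown for 5 genes that differed in how they moved: Exoc5, which lay above the change that most expressed genes of the chromosome shared, Mmp14, which followed it, Itm2b, which did not share it, and Lgals3 and Thrb, which moved the other way. Each is the stretch from 250 bases before to 50 bases after the start of the gene in RefSeq's table for GRCm38.p6, written 5′ to 3′ along the gene. Capitals mark exact matches, on either strand, to 5 short promoter motifs, which were the TATA box (TATAAA), the CCAAT box (CCAAT), the GC box (GGGCGG), the E box (CACGTG) and the ETS core (CCGGAAG).
Exoc5 (chr14:49066618-49066917, minus strand): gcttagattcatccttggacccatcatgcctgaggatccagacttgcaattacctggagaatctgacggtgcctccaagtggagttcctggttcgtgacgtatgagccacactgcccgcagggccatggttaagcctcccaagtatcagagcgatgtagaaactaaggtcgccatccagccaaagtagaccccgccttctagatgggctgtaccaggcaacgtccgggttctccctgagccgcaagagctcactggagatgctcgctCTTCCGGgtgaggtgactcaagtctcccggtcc
Mmp14 (chr14:54431348-54431647, plus strand): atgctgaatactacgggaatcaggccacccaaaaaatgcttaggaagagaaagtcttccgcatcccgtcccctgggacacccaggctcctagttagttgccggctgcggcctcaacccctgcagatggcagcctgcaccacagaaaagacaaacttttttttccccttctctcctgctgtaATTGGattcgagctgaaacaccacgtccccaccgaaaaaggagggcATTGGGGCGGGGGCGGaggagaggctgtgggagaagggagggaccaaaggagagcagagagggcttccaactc
Itm2b (chr14:73385240-73385539, minus strand): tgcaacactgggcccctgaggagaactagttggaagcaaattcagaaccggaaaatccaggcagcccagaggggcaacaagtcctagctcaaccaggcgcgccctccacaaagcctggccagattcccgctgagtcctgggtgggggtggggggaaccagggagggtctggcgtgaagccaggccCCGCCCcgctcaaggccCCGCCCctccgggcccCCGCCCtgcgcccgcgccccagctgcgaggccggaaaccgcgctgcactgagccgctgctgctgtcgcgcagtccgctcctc
Lgals3 (chr14:47373610-47373909, plus strand): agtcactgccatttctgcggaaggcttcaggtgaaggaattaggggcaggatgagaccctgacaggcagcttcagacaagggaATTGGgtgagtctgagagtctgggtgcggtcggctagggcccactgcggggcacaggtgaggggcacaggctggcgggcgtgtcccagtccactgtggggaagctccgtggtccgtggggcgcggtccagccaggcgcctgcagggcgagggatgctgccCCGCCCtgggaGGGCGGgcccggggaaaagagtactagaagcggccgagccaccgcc
Thrb (chr14:17660710-17661009, plus strand): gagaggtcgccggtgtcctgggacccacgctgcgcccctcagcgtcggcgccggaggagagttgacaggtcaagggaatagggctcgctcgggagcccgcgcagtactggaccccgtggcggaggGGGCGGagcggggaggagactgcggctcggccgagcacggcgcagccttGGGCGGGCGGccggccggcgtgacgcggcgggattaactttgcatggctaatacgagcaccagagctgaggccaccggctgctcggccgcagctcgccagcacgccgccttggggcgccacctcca

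The Exoc5 window held an ETS core, and the Mmp14, Itm2b, Lgals3 and Thrb windows held GC boxes, and those of Mmp14 and Lgals3 also held CCAAT boxes, 1 of which overlapped a GC box in Mmp14. Among all 27025 promoters of the table, 14.2% held a TATA box, 37.9% a CCAAT box, 35.9% a GC box, 7.24% an E box and 9.12% an ETS core. Among 7322 promoters of genes expressed on the other chromosomes, these shares were 7.01%, 39.3%, 66.9%, 10.5% and 19.7%. A match is a run of letters and not a bound site. The table held a promoter for 237 of the 310 expressed genes of chromosome 14, beside 7322 of 8956 elsewhere. Because the rest had none, the check of base composition and motifs between groups of these genes was held void.

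Chromosome 14 genes that were expressed were higher in Tmem161a-KO cells as a body. A gene was called expressed when its mean log2 intensity over the 6 arrays was at or above the median of all rows with a symbol, a log2 intensity of 7.88 or an intensity of 236, and 311 of the 683 rows (45.5%) were. A relative log2 fold change is the log2 fold change of Tmem161a-KO over WT minus 0.07, its median over 8978 expressed rows of the other chromosomes, with chromosome 17 also left out. The median relative log2 fold change of the 311 rows was 0.59, a 1.50-fold difference, and is called the common shift below. By array, the median level of these rows against the WT mean was 0.56, 0.51 and 0.59 in Tmem161a-KO cells, against 0.0100, 0.0094 and 0.0052 in WT cells, all on the relative log2 scale. The mean was 0.55 ± 0.038 in Tmem161a-KO cells and 0.0082 ± 0.0026 in WT cells (SD, n = 3 each), and the lowest Tmem161a-KO array lay 0.50 above the highest WT array. In RNA from whole cultures, a change in every cell and a change in the share of cells that carry a transcript cannot be told apart. The medians of the other chromosomes, 17 aside, ran between -0.09 on chromosome 15 and 0.11 on chromosome 12, and chromosome 17, with 494 expressed rows, stood at -0.25.

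**Figure D1:**
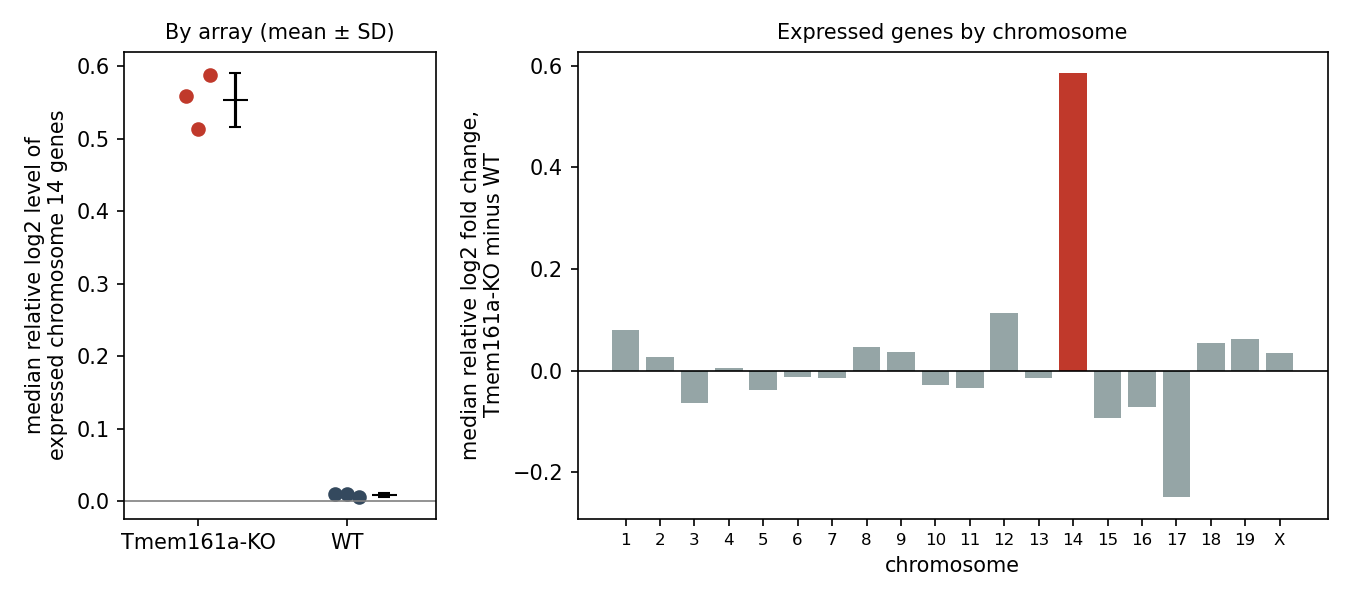
Left, the median relative log2 level of the 311 expressed chromosome 14 rows on each array, with the mean and SD of 3 arrays beside the points; right, the median relative log2 fold change of the expressed rows of each chromosome. The 3 Tmem161a-KO arrays lie between 0.51 and 0.59 and the WT arrays near 0, and chromosome 14 has the highest bar at 0.59.

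In the comparison of all rows with limma, 225 of the 683 rows were called higher in Tmem161a-KO cells and 14 lower at an adjusted p under 0.05, beside 5.73% of all rows called higher and 4.17% called lower. Of the expressed rows 212 were called higher, 5 lower and 94 neither. In 230 of the 311 (74.0%) every Tmem161a-KO array lay above every WT array, beside 23.5% of the expressed rows elsewhere, and in 17 (5.47%) every Tmem161a-KO array lay below, beside 13.6% elsewhere. The shared change was not a rise of every gene: 262 expressed rows (84.2%) had a relative log2 fold change above 0, the middle 50% of the rows lay between 0.26 and 0.78, and the outer 5% on each side lay below -0.33 or above 1.05.

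The level of a gene went with how far it had moved. Level is the mean log2 intensity over all 6 arrays, so a gene's own change in Tmem161a-KO cells also moved its level. The part of this in the pattern was not tested. In the 261 rows darker than the 95th percentile of 1091 olfactory receptor rows (a log2 intensity of 6.65, an intensity of 100), which served as a measure of background, the median relative log2 fold change was -0.12, the same as the -0.12 of rows of that level elsewhere. In the 111 rows between that level and the expressed level the medians were -0.19 on chromosome 14 and -0.17 elsewhere. In the 78 rows just above, up to a log2 intensity of 9, the median was 0.28, against -0.11 elsewhere. From 9 upwards it was 0.61, 0.62, 0.69 and 0.75 in successive steps of 1, against 0.01, 0.03, 0.03 and 0.05 elsewhere, and 0.55 in the 28 rows above 13, against -0.0045. Rows near background carry little transcript signal, so the 372 dim rows, of which 13 were called higher and 9 lower, cannot show whether their genes share the shift.

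**Figure D2:**
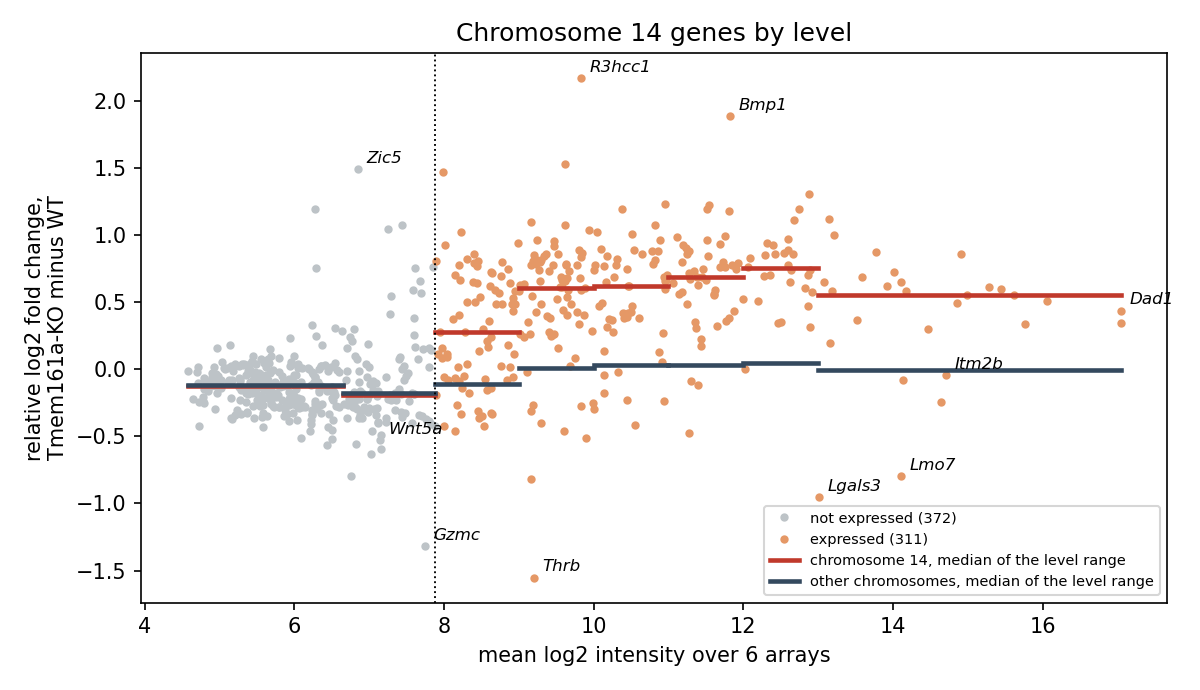
Relative log2 fold change of the 683 chromosome 14 rows against the mean log2 intensity over the 6 arrays; horizontal lines are medians of a range of levels on chromosome 14 and on the other chromosomes, and the dotted line is the expressed level of 7.88. Below that line both medians lie between -0.19 and -0.12, and above it the chromosome 14 medians lie between 0.28 and 0.75.

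Each expressed row was then placed by the 95% interval of its relative log2 fold change. The interval held the shift and left out 0 in 166 rows (53.4%), which are said to follow the shift, beside 8.55% of the expressed rows elsewhere. It lay above the shift in 52 rows (16.7%, beside 1.05% elsewhere). It held 0 and not the shift in 57 rows (18.3%, beside 68.4%), which are said to show no shift, lay between 0 and the shift in 11, lay below 0 in 23 (7.40%, beside 16.7%) and held both in 2. In all, 143 rows departed from the shift, 91 of them downwards. Expressed rows up to a log2 intensity of 9 made up 29 of the 57 with no shift and 10 of the 23 below 0. Rows of that level elsewhere had a median of -0.11, and the part of level in these classes was not tested. If the fold changes were set against the shift without subtracting the median of the other chromosomes, 73 rows would lie above, 162 would follow, 53 would show no shift and 17 would lie below 0. The interquartile range of the expressed rows was 0.52, beside 0.29 to 0.36 on the other chromosomes, 17 aside, and 46.0% of their intervals left out the median of their own chromosome, beside 25.2% to 35.0% on the others. These spreads were not tested. Of the 311 rows 11 passed the expressed level through their Tmem161a-KO mean alone, among them Lacc1 and Lpar6 of the 52 above the shift, and 2 through their WT mean alone.

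The shift ran along the whole chromosome. In 12 successive groups of about 26 expressed genes, ordered by position, the median relative log2 fold change ran between 0.38 in the group that starts with Dcaf11 and ends with Il17d and 0.73 in the group between Sox7 and R3hcc1. In each of the 12 groups the median level was higher on all 3 Tmem161a-KO arrays than on all 3 WT arrays. The running median over the 41 nearest expressed genes stayed between 0.37 and 0.76.

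Neighbours departed from the shift in opposite ways. The rows of Entpd4, R3hcc1, Chmp7 and Tnfrsf10b followed each other and all lay above the shift, at 1.20 and 0.94 for the 2 rows of Entpd4, 2.17 for R3hcc1, 1.19 for Chmp7 and 1.23 for Tnfrsf10b. A little further on, Pdlim2 at -0.30 and Sorbs3 at 0.05 did not share in it. Among the expressed genes Itm2b, at -0.04, stood between Lpar6 at 1.02 and Med4 at 1.03. Rb1, the retinoblastoma protein that restrains entry into the cell cycle, overlaps Lpar6 in the genome and had 0.30, and the counting of probes between overlapping genes could not be checked here.

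**Figure D3:**
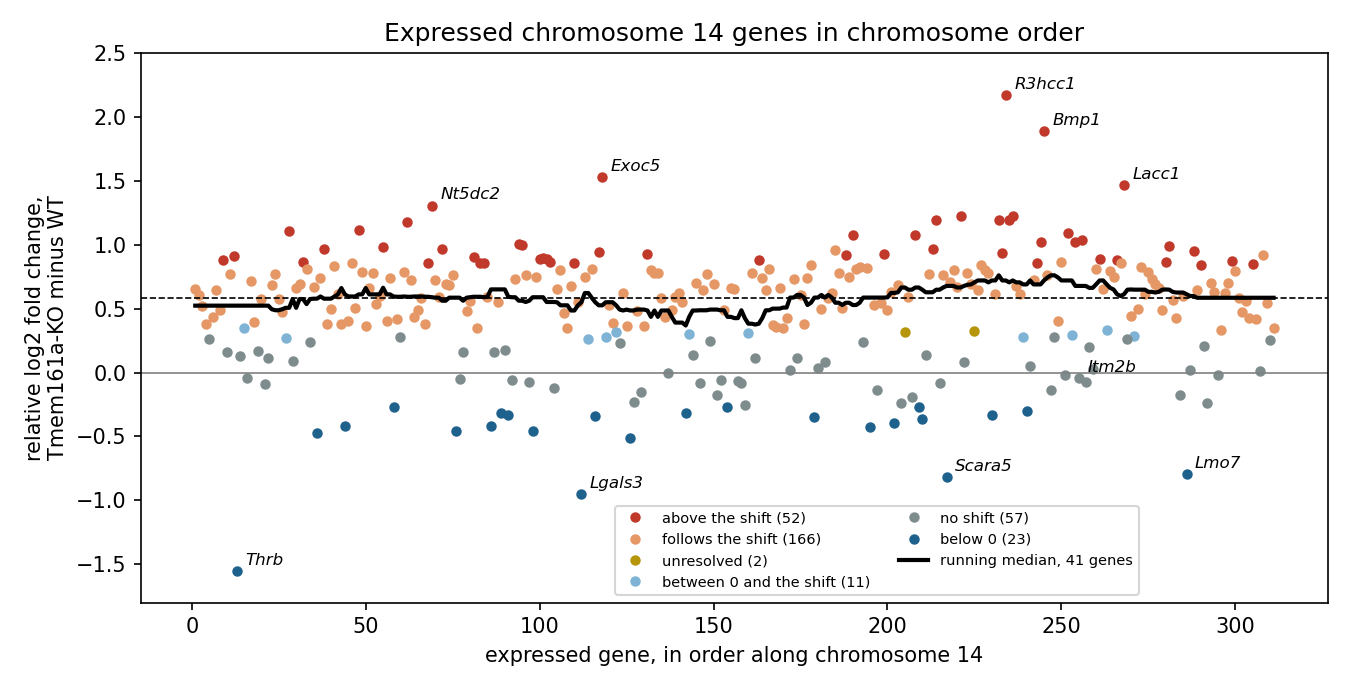
Relative log2 fold change of the 311 expressed rows in their order along chromosome 14, coloured by how the 95% interval lies to the common shift (dashed line, 0.59) and to 0; the black line is the running median over 41 genes. The running median stays between 0.37 and 0.76 from end to end, and single genes reach 2.17 (R3hcc1) and -1.55 (Thrb).

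Among matrix and secreted proteins, genes moved in opposite directions. Of 21 such rows, 4 were called higher and 2 lower, beside 225 and 14 of 683 on the chromosome. Of all rows 5.73% and 4.17% were. In the list 4 of the 11 expressed rows followed the shift or lay above it, against 218 of all 311. Bmp1, the procollagen C-proteinase that trims fibrillar collagen, had intensities of 8081, 6534 and 6852 in Tmem161a-KO cells, against 1954, 1614 and 1961 in WT cells. The groups lay far apart, with a log2 fold change of 1.96 (SE 0.13) and a relative one of 1.89 (95% interval 1.62 to 2.16). Scara3, a scavenger receptor linked to oxidative stress, had 3422, 3134 and 2788 in Tmem161a-KO cells, against 1361, 1317 and 1125 in WT cells, at 1.23 (95% interval 0.96 to 1.49) on the relative log2 scale. Mmp14, the membrane-bound protease that cleaves collagen and activates Mmp2, followed the shift, with 22123, 19503 and 17567 in Tmem161a-KO cells, against 14426, 10651 and 11778 in WT cells, and with a relative log2 fold change of 0.62 (95% interval 0.33 to 0.91). All of its Tmem161a-KO arrays lay above all of its WT arrays.

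Lgals3, Scara5, Plau and Ctsb all had 95% intervals below the shift. Lgals3, galectin-3, which binds galactoside sugars on cell surfaces and matrix, had 5004, 7861 and 5726 in Tmem161a-KO cells, against 10630, 11442 and 11636 in WT cells. Every Tmem161a-KO array lay below every WT array, with a log2 fold change of -0.88 (SE 0.15) and a relative one of -0.95 (95% interval -1.27 to -0.64). Without Tmem161a-KO replicate 2, the brightest of its group, the relative value was -1.14. Scara5, a ferritin receptor, had 324, 696 and 385 in Tmem161a-KO cells, against 727, 950 and 600 in WT cells, and its groups overlapped. Its call as lower was lost with the arrays centred on their medians (limma adjusted p = 0.059), with an intensity trend (0.144) and without 4 of the 6 arrays in turn (0.102 to 0.195). Plau, the urokinase plasminogen activator, had 2406, 2272 and 1835 in Tmem161a-KO cells, against 2914, 2429 and 3279 in WT cells, a relative log2 fold change of -0.47 (95% interval -0.77 to -0.18), and was not called, but was called lower with quantile normalization (limma adjusted p = 0.044). Ctsb, the lysosomal protease cathepsin B, was bright and overlapped between the groups, with 25889, 25238 and 21202 in Tmem161a-KO cells, against 30130, 26206 and 25089 in WT cells.

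Ligands and receptors also divided. Of 24 rows 9 were expressed, and 4 of these followed the shift or lay above it, against 218 of all 311. Of the 24, 4 were called higher and 2 lower, beside 225 and 14 of 683 on the chromosome and 5.73% and 4.17% of all rows. Tnfrsf10b, the mouse death receptor for TRAIL, had 4615, 4979 and 4493 in Tmem161a-KO cells, against 1909, 1890 and 1936 in WT cells, a log2 fold change of 1.30 (SE 0.11). Lrp10, a receptor of the LDL receptor family, followed the shift at 0.55 (95% interval 0.23 to 0.88). The call of Lrp10 was lost without Tmem161a-KO replicate 1 (limma adjusted p = 0.080) and without WT replicate 2 (0.086).

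Thrb, the thyroid hormone receptor beta, moved farthest downwards of the expressed genes, with 390, 381 and 296 in Tmem161a-KO cells, against 1272, 977 and 773 in WT cells. The lowest WT array was well above the highest Tmem161a-KO array, and the log2 fold change was -1.48 (SE 0.16), a relative one of -1.55 (95% interval -1.90 to -1.20). Gpr137c, a lysosomal membrane protein, had -0.46 on the relative log2 scale with all Tmem161a-KO arrays below all WT arrays, and was not called, but was called lower with quantile normalization (limma adjusted p = 0.032) and with a replicate block (0.048).

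Wnt5a, the ligand of non-canonical Wnt signalling that acts in bone and limb growth, was a dim row, below the expressed level and above the olfactory rows. Its intensities were 129, 125 and 108 in Tmem161a-KO cells, against 165, 174 and 158 in WT cells. All Tmem161a-KO arrays lay below all WT arrays, with a log2 fold change of -0.46 (SE 0.12) and a relative one of -0.53 (95% interval -0.77 to -0.28), and it was called lower. The relative value stood beside medians of -0.19 on chromosome 14 and -0.17 elsewhere for dim rows above the olfactory level. The call was lost with quantile normalization (limma adjusted p = 0.060), without Tmem161a-KO replicate 3 (0.084) and without WT replicate 1 (0.061) or 2 (0.081). Of the 4 genes before it, Tasor, which encodes a subunit of a silencing complex, and Ccdc66 followed the shift at 0.40 and 0.74, Erc2 had -0.27, and Arhgef3 was dim at -0.15. Of the 4 after it, Selenok, a selenoprotein of the endoplasmic reticulum, followed at 0.42, Actr8 had 0.28, and Cacna2d3 and Lrtm1 were dim. The shift therefore had members on both sides of Wnt5a.

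Signalling mediators followed the shift more often than they departed. Of 27 rows 19 were called higher and 1, the dim Peli2, lower, beside 225 and 14 of 683 on the chromosome. Of all rows 5.73% and 4.17% were. In the list 18 of the 20 expressed rows followed or lay above, against 218 of all 311. Prkcd, protein kinase C delta, had 6373, 4811 and 5423 in Tmem161a-KO cells, against 2475, 2116 and 2384 in WT cells, at 1.18 (95% interval 0.90 to 1.45) on the relative log2 scale. Ppp3cb, a catalytic subunit of calcineurin, had 8394, 8498 and 13571 in Tmem161a-KO cells, against 4567, 4724 and 3867 in WT cells. Tmem161a-KO replicate 3 stood above the others of its group, and without it the relative log2 fold change was 0.89 in place of 1.11. Ppp2r2a, a regulatory subunit of protein phosphatase PP2A, followed at 0.65, as did Farp1, a guanine nucleotide exchange factor, at 0.47. Arhgap22 did not, at 0.16.

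The listed transcription factors that were expressed mostly stood apart from the shift. Of 24 rows only 10 were expressed, of which 3 followed it and 0 lay above, against 218 of all 311 that did either. The list does not hold every transcription factor of the chromosome, since Elf1, Hmbox1, Zic2 and Tsc22d1 all followed. Of its 24 rows 5 were called higher, beside 225 of 683 on the chromosome and 5.73% of all rows. Tsc22d1, a leucine zipper protein first found as a target of TGF-beta, was the brightest, with 43437, 36172 and 48197 in Tmem161a-KO cells, against 25141, 18377 and 23959 in WT cells, and its relative log2 fold change was 0.86. Zfp395 showed no shift at -0.09. Nkx2-6 and Sox7 were lower in all Tmem161a-KO arrays than in all WT arrays, at -0.33 and -0.27, and were not called. Of the dim factors Zic5, a zinc finger protein of the neural crest, had 202, 192 and 202 in Tmem161a-KO cells, against 74.6, 59.4 and 69.6 in WT cells, and the WT values lay at background.

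Genes of chromatin, DNA repair and cell division were higher nearly throughout. Of 32 rows 27 were called higher and 0 lower, beside 225 and 14 of 683 on the chromosome and 5.73% and 4.17% of all rows. In the list 25 of the 29 expressed rows followed or lay above, with a median of 0.68, against 218 of all 311 with a common shift of 0.59. Pbk, a kinase of mitotic cells, followed the shift with 10082, 9327 and 9936 in Tmem161a-KO cells, against 4758, 6822 and 5752 in WT cells. Top2b, DNA topoisomerase II beta, lay above at 0.91 (95% interval 0.64 to 1.19). Prmt5, the arginine methyltransferase that modifies histones and splicing proteins, was bright and moved less, with 26460, 23750 and 27408 in Tmem161a-KO cells, against 21556, 18458 and 20063 in WT cells. Its groups did not overlap, its relative log2 fold change was 0.30 (95% interval 0.05 to 0.55), and it was not called. It was called higher with each array centred on its median (limma adjusted p = 0.027) and with an intensity trend (0.016). Cdkn3, a phosphatase that acts on cyclin-dependent kinases, and Haus4, a subunit of the augmin complex of the spindle, showed no shift at -0.12 and 0.13.

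RNA processing, transport and translation genes had 26 of 27 rows called higher and 0 lower, all 27 expressed, and a median of 0.70. Among all 311 expressed rows 212 were called higher and 5 lower, beside 5.73% and 4.17% of all rows with a symbol. In the list the 95% intervals lay above the shift in 8 rows, held it and left out 0 in 16, and lay between 0 and the shift in 3. Dis3, the catalytic exonuclease of the RNA exosome, had 4869, 4830 and 5357 in Tmem161a-KO cells, against 2508, 2337 and 2372 in WT cells. Med4, a Mediator subunit, and Polr3d, a subunit of RNA polymerase III, lay above the shift too, at 1.03 and 1.02. The 2 brightest genes of the list moved less than the shift. Rpl15, a protein of the large ribosomal subunit, had 156279, 151007 and 160144 in Tmem161a-KO cells, against 118849, 113523 and 118501 in WT cells, and its relative log2 fold change was 0.34 (95% interval 0.11 to 0.58). Tpt1, the translationally controlled tumour protein, had 67940, 56957 and 68556 in Tmem161a-KO cells, against 49435, 49024 and 47274 in WT cells, and its relative log2 fold change was 0.33 (95% interval 0.09 to 0.58). Leaving out single arrays ended the call of Rpl15 in 5 of 6 cases (limma adjusted p = 0.053 to 0.082) and of Tpt1 in 5 of 6 (0.091 to 0.127).

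Mitochondrial and metabolic genes followed the shift in 14 of 25 expressed rows and lay above it in 4. These counts were close to the shares of all 311 expressed rows, 53.4% and 16.7%. Of all 32 rows of the list 19 were called higher and 1, the dim amino acid transporter Slc7a8, lower. On the chromosome 225 and 14 of 683 were, and 5.73% and 4.17% of all rows. Vdac2, a channel of the outer mitochondrial membrane, had 51416, 46906 and 54037 in Tmem161a-KO cells, against 34115, 31027 and 29919 in WT cells, at 0.61 (95% interval 0.37 to 0.86) on the relative log2 scale. Oxa1l, which inserts proteins into the inner membrane, followed at 0.49. Sucla2, a subunit of succinyl-CoA ligase, Abhd4, a lipid hydrolase, and Msra, which repairs oxidised methionine, showed no shift, at -0.08, -0.0010 and 0.14.

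The secretory pathway had 18 of 26 rows called higher and 0 lower, beside 225 and 14 of 683 on the chromosome. Of all rows 5.73% and 4.17% were. In the list 19 of the 22 expressed rows followed or lay above, against 218 of all 311. Exoc5, a subunit of the exocyst that tethers secretory vesicles, had 1091, 1375 and 1710 in Tmem161a-KO cells, against 442, 445 and 472 in WT cells, a relative log2 fold change of 1.53 (95% interval 1.22 to 1.84). Extl3, a glycosyltransferase of heparan sulphate synthesis, had 1.20, and Chmp7, an ESCRT protein of the nuclear envelope, had 1.19. Both rows of Entpd4, a Golgi nucleotidase, lay above the shift, but the mouse genome holds a near-identical copy beside it, so the values of the rows are uncertain. Dad1, a subunit of the oligosaccharyltransferase that attaches sugars to new proteins, was the brightest and followed, with 167408, 155294 and 160783 in Tmem161a-KO cells, against 113385, 105927 and 121870 in WT cells, and its relative log2 fold change was 0.44 (95% interval 0.20 to 0.67). Itm2b, a membrane protein of the BRI family, showed no shift, with 25224, 26743 and 29139 in Tmem161a-KO cells, against 25831, 27207 and 26452 in WT cells. Its groups overlapped and its relative log2 fold change was -0.04 (95% interval -0.28 to 0.20), an interval that leaves out the shift. Emc9 had -0.25.

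Of the proteasome and ubiquitin genes 12 of 22 rows were called higher and 0 lower, beside 225 and 14 of 683 on the chromosome. Of all rows 5.73% and 4.17% were. In the list 12 of the 17 expressed rows followed the shift or lay above it, a share close to the 218 of all 311. Psmc6, an ATPase subunit of the proteasome, had 8240, 8118 and 9655 in Tmem161a-KO cells, against 4716, 4435 and 4234 in WT cells, at 0.89 (95% interval 0.64 to 1.14) on the relative log2 scale. Psme1, a subunit of the PA28 activator of the proteasome, showed no shift, with 19540, 16692 and 17731 in Tmem161a-KO cells, against 18656, 18310 and 17395 in WT cells. Psme2, which encodes its partner subunit, had 0.31, between 0 and the shift. Rcbtb2 lay above at 1.09, and Mycbp2, a large ubiquitin ligase, showed no shift at 0.02.

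The cytoskeleton and adhesion list had 24 rows, of which 4 were called higher and 2 lower. On the chromosome 225 and 14 of 683 were, and 5.73% and 4.17% of all rows. In the list 5 of the 10 expressed rows followed the shift or lay above it, against 218 of all 311. Dpysl2, which binds tubulin, followed the shift, with 16635, 15579 and 15587 in Tmem161a-KO cells, against 9231, 9325 and 9697 in WT cells. Lmo7, a protein of cell junctions, was the brightest gene of the list and lay below 0, with 11217, 15633 and 14895 in Tmem161a-KO cells, against 22086, 25774 and 20762 in WT cells. Its groups did not overlap, with a log2 fold change of -0.73 (SE 0.14) and a relative one of -0.79 (95% interval -1.09 to -0.50). Pdlim2, a PDZ and LIM domain protein of the actin cytoskeleton, had -0.30 (95% interval -0.56 to -0.04) with overlapping groups, and Cdh24, a cadherin, showed no shift at -0.08.

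**Figure D4:**
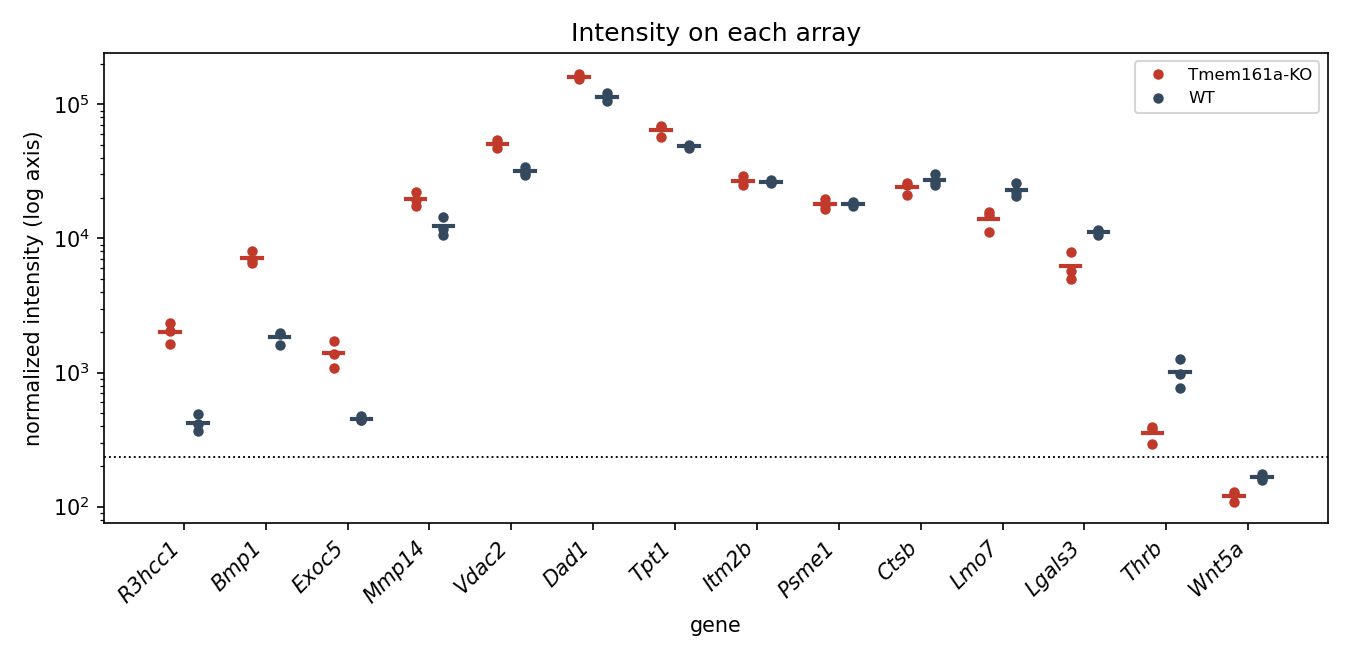
Normalized intensity on a log axis of 14 genes on each of 3 Tmem161a-KO arrays (left of each pair) and 3 WT arrays (right); short lines are means and the dotted line is the expressed level, an intensity of 236. R3hcc1, Bmp1, Exoc5, Mmp14, Vdac2, Dad1 and Tpt1 are higher in Tmem161a-KO cells on every array, Itm2b, Psme1 and Ctsb overlap, and Lmo7, Lgals3, Thrb and Wnt5a are lower on every array.

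The farthest of all above the shift was R3hcc1, which encodes a protein with a single-stranded nucleic acid binding domain, with 2335, 2041 and 1632 in Tmem161a-KO cells, against 411, 364 and 493 in WT cells. The fitted fold was 4.72, and the relative log2 fold change 2.17 (95% interval 1.86 to 2.48). Lacc1, a metabolic enzyme known from macrophages, passed the expressed level through its Tmem161a-KO arrays alone, with 445, 340 and 535 in Tmem161a-KO cells, against 174, 150 and 127 in WT cells, at 1.47 on the relative log2 scale. Nt5dc2 was bright, with 13168, 10985 and 12236 in Tmem161a-KO cells, against 5171, 4304 and 4565 in WT cells, at 1.31. Rnase6, a ribonuclease with antimicrobial action, was lower, with 804, 875 and 783 in Tmem161a-KO cells, against 1237, 1119 and 1003 in WT cells, and its relative log2 fold change was -0.51 (95% interval -0.77 to -0.26). Its call was lost without 4 of the 6 arrays in turn (limma adjusted p = 0.077 to 0.122). Colq, C1qtnf9, Fam170b and Zfp503 had all Tmem161a-KO arrays below all WT arrays, between -0.46 and -0.42, and were not called. Zfp503 was called lower with quantile normalization (limma adjusted p = 0.044).

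Of 26 rows for proteins of other cell types, such as mast cell proteases, granzymes, surfactant proteins and cardiac myosins, 0 were expressed and 8 lay above the olfactory rows. Beside 5.73% of all rows called higher and 4.17% lower, 0 of the 26 were called higher and 2 lower. These were Gzmc and Gzmb, cytotoxic granule proteases that lie in 1 cluster of similar genes, so that their rows can share signal. Gzmc had 146, 141 and 130 in Tmem161a-KO cells, against 360, 374 and 267 in WT cells, and Gzmb had 82.9, 95.2 and 75.8 in Tmem161a-KO cells, against 147, 164 and 112 in WT cells. The WT arrays of Gzmc lay above the expressed level of 236, which its mean over all 6 arrays did not reach. The median relative log2 fold change of the 26 rows was -0.12, as in rows of background level elsewhere.

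**Figure D5:**
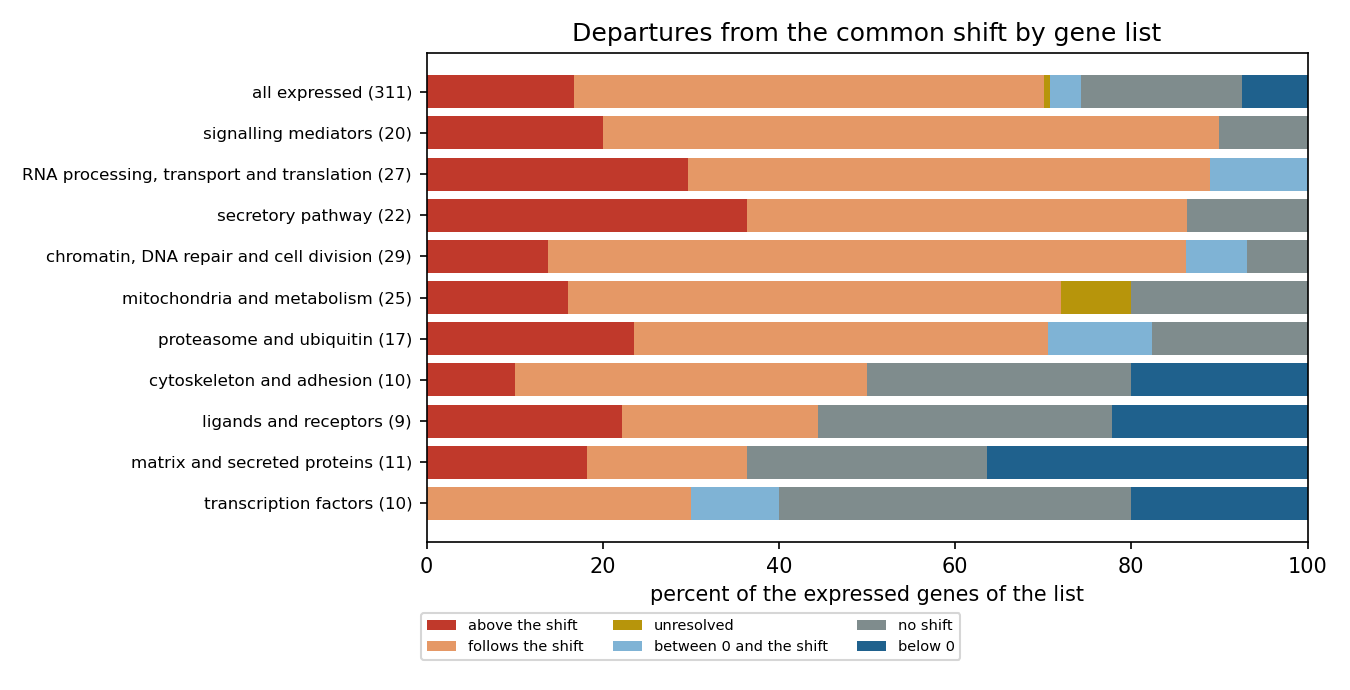
Share of the expressed rows of each gene list, with their number in brackets, whose 95% interval lay above the common shift, followed it, was unresolved, lay between 0 and the shift, showed no shift or lay below 0. In the lists of signalling mediators, RNA processing, secretory pathway and chromatin more than 80% of the rows follow the shift or lie above it, beside 70.1% of all 311, and in the lists of transcription factors, matrix proteins and ligands and receptors fewer than 50% do.

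The lists also differed in brightness. The median log2 intensity of the expressed rows was 10.6 for RNA processing, 10.1 for chromatin and 11.4 for the secretory pathway, against 8.76 for transcription factors, 9.47 for ligands and receptors and 11.3 for matrix and secreted proteins, and its part in these counts was not tested.

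Tmem161a itself, on chromosome 8, had intensities of 936, 1001 and 963 in Tmem161a-KO cells, against 1155, 1061 and 1229 in WT cells, a log2 fold change of -0.25 (SE 0.11), and where its probes lie relative to the edit is not known here. Median intensities over all rows were 204 to 208 on the Tmem161a-KO arrays and 214 to 215 on the WT arrays. Log2 values of the 311 expressed chromosome 14 rows correlated at r = 0.9897 to 0.9918 within groups and 0.9602 to 0.9724 between them. Of 8 osteoblast markers measured, 6 were expressed and Alpl and Ibsp lay below the olfactory level. Sp7, the osteoblast transcription factor osterix, was called higher, with 724, 802 and 1022 in Tmem161a-KO cells, against 188, 169 and 165 in WT cells, a log2 fold change of 2.27 (SE 0.13), and its WT arrays lay below the expressed level. The other 7 markers were not called. Among the expressed ones, log2 fold changes were 0.03 for Sparc, 0.36 for Postn, -0.11 for Col1a2, -0.16 for Col1a1 and -0.30 for Bglap. Of 14 markers of other cells 2 were expressed, Myog and Col2a1, a cartilage collagen that had 630, 620 and 766 in Tmem161a-KO cells, against 1328, 1233 and 1014 in WT cells, and was called lower. The part of Sp7 and Col2a1 in the results on chromosome 14 was not tested.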

How the data were processed

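RNA of 3 Tmem161a-KO and 3 WT samples of MC3T3-e1 cells was read on 1-colour Clariom S arrays. The authors deposited linear intensities, normalized in GeneSpring, with 1 column per array. How background was corrected, how probes were combined and which genome build the array follows were not given in the sources used here. Log2 intensities, with no pseudocount, entered a limma fit (version 3.58.1, under R 4.3.3, with eBayes and no covariate), followed by Benjamini-Hochberg adjustment over 19571 rows with a symbol and calls at an adjusted p under 0.05. Arrays carry no read depth, and 3 arrays a group limit the precision.

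Symbols came from the platform annotation and the order along the chromosome from a RefSeq gene table, which was used for neighbours alone. The 236 chromosome 14 rows without a symbol entered no comparison. The fits were tested on simulated data.

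The members, the 11 gene lists of the chromosome and the rules were chosen with earlier results of these data known. The rule for named genes took Wnt5a with 4 genes on each side, the 10 highest and the 10 lowest expressed genes among those whose 95% interval left out the shift and whose groups did not overlap, and from each list the 2 brightest genes and up to 3 departures. The subtraction of 0.07 from each fold change before it was set against the shift was settled after counts without it had been seen. Psme2, Rb1, Lpar6, Sorbs3, Zic5, Gzmc, Gzmb, Peli2 and Slc7a8, and the marker Sp7, were named after their values had been seen. The 5 motifs were picked without a plan. Alternatives were another normalization, variance model, level, interval, centre and test, a replicate block and leaving out each array.

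The replicate numbers were checked as pairs. The deviations of same-numbered Tmem161a-KO and WT arrays from their group means correlated at r = 0.159, 0.181 and 0.0151, so the numbers were not taken to pair the samples.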

Additional observations from a re-analysis of the deposited data

Results flagged for a closer look

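Outside the genes with a symbol, the arrays held 236 rows of chromosome 14 that carry none, and 36 of these were expressed. Against 894 such rows elsewhere, their median relative log2 fold change of Tmem161a-KO over WT was 0.41, a signal in rows that no comparison used. By array the median was 0.49, 0.49 and 0.41 in Tmem161a-KO cells and -0.031, 0.0010 and 0.017 in WT cells, and 23 of the 36 rows (63.9%) were higher on all Tmem161a-KO arrays than on all WT arrays, beside 161 of the 894 (18.0%) elsewhere. Groups of 3 arrays are too small for a check of single outlying arrays.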

How the results depend on the processing

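The common shift stayed between 0.56 and 0.60 when each array was left out in turn. It was 0.44 when rows as dim as the olfactory 95th percentile counted as expressed, 0.64 with the upper quartile as the level and 0.50 as a mean. With the olfactory level, 120 rows lay above the shift, 17 were unresolved, 0 lay between, 105 showed no shift and 45 lay below 0. With the upper quartile, 17 lay above, 76 followed, 1 was unresolved, 11 showed no shift and 6 lay below 0. Around the mean, 85 lay above, 9 were unresolved and 2 lay between. With a 99% interval, 27 lay above, 36 were unresolved, 0 lay between and 12 lay below 0. Without centring on the other chromosomes, an alternative added after seeing the data, 73 lay above, 162 followed, 1 was unresolved, 5 lay between, 53 showed no shift and 17 lay below 0. The intensity trend left 1 row unresolved. The cause of these moves, beyond the rows or limits each setting admits, was not tested.

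Leaving out single arrays gave 42 to 56 rows above, 168 to 181 that followed, 7 to 11 unresolved, 0 to 4 between, 54 to 63 with no shift and 16 to 21 below 0. The calls numbered 194 to 211 higher and 8 to 15 lower, with 8 lower without Tmem161a-KO replicate 3 and without WT replicate 1 or 2. The lowest of the 12 groups along the chromosome had a median of 0.37 to 0.44 and the highest of 0.66 to 0.81. The methods' t-test at an unadjusted threshold called 39 rows lower, and after Benjamini-Hochberg adjustment 35 higher and 0 lower. Leaving out dim rows before the adjustment gave 6 lower. With the replicate number as a block, 0 rows were unresolved, and 231 were called higher and 16 lower, of which 223 and 14 were shared with the fit without it. Same-numbered arrays correlated at r = 0.0151 to 0.181, and differently numbered ones at -0.224 to 0.0715.

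Centring each array on its median moved the median log2 fold change of expressed rows to 0.12, against 0.06 as deposited and 0.01 after quantile normalization. Calls over all rows were then 72.5% higher, against 57.9% as deposited and 52.0% after quantile normalization, while those on chromosome 14 were 95.3%, 94.1% and 94.2% higher. For the 69 named rows 7 of 759 alternative values moved by more than 1 SD between replicates, and 13 changed sign, in 8 genes whose relative log2 fold change was at most 0.15 in size. Genes near background limit what dim rows can show.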
